A study of Mus musculus with 12 samples.

Results

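The haploid spermatid genes are 42 genes listed together for the stage of germ cells after meiosis. At that stage the round spermatid condenses its nucleus and builds the acrosome and the tail. The genes were taken by symbol from the deposited RNA-seq table, and all 42 were found among its 21859 genes. They were examined in sorted undifferentiated spermatogonia, a population several weeks of development upstream of the spermatid. Most of this RNA is not thought to be made there in quantity. Not all members are confined to the spermatid, and *Odf2* and *Hook1*, for example, also act in other cells.

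RNA was measured in 12 Smart-seq2 libraries, 5 labelled WT from control testes and 7 labelled Cryptorchid from testes taken on day 10 after surgery. The mice of both groups were adult GFRa1-EGFP males, whose EGFP follows the gene for the GDNF receptor GFRa1, and cells were sorted as GFRa1+/KIT-, which leaves out spermatogonia that carry the differentiation receptor KIT. The left testis had been fixed to the abdominal wall and the right testis had stayed in the scrotum as the control, so a control testis came from a mouse that had also had surgery. Neither the labels nor the methods tie libraries to mice. RNA worth about 200 cells went into each library, and because testes were digested at a lower temperature for the control than for the cryptorchid group, digestion and condition cannot be told apart.

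Spermiogenesis is the part of spermatogenesis that turns a round haploid cell into a sperm. Histones are replaced first by transition proteins (*Tnp1*, *Tnp2*) and then by protamines (*Prm1*, *Prm2*), the acrosome forms from Golgi vesicles, and outer dense fibres and a fibrous sheath are laid down around the axoneme. Much of this program is switched on by the activator isoform of CREM, which binds cAMP response elements (CREs), and by RFX2, which binds X-box elements, and many of the transcripts are stored and translated days later. *Prm1*, *Prm2*, *Prm3* and *Tnp2* lie side by side on the minus strand, between chr16:10787936 and 10805839 of GRCm38.

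The upstream sequences of 4 members are given as examples that differ in motif content. *Prm2*, *Smcp* and *Tcp11* are lower in cryptorchid libraries by the test given below, and *Izumo1* is not. Each sequence holds the 250 bases before the RefSeq start, read 5′ to 3′ on the strand of the gene, none of them inside an annotated exon (that of *Prm2* is inside the longer gene span of GENCODE), with any match to the 4 searched motifs in capitals.
Prm2 (GRCm38.p6, chr16:10792106-10792355, minus strand): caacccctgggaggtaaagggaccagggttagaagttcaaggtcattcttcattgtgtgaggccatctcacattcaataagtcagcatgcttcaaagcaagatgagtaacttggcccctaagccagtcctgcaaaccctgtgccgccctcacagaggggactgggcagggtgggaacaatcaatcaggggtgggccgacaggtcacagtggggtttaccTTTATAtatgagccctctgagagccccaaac
Smcp (GRCm38.p6, chr3:92589074-92589323, minus strand): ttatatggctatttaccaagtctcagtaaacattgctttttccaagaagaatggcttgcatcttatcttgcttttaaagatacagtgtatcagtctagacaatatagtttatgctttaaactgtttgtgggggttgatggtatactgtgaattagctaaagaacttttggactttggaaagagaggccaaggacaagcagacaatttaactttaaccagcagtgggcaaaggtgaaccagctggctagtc
Tcp11 (GRCm38.p6, chr17:28080640-28080889, minus strand): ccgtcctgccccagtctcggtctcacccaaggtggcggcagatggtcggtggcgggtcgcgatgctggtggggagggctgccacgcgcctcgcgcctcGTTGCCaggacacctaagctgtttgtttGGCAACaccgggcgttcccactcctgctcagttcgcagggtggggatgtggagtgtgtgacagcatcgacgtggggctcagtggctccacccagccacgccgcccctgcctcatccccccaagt
Izumo1 (GRCm38.p6, chr7:45621561-45621810, plus strand): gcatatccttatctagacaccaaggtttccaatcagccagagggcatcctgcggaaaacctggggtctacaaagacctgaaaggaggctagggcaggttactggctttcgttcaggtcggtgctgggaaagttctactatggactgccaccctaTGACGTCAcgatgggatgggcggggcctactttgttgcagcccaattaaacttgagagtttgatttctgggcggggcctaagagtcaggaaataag
The capitals in *Prm2* are TTTATA, the reverse of the TATA motif TATAAA, and begin 31 bases before the start. *Smcp* holds none of the motifs. Those in *Tcp11* are the X-box core GTTGCC at 152 bases and its reverse, GGCAAC, at 124 bases before the start, for the first of 3 RefSeq starts. *Izumo1* holds a full CRE, TGACGTCA, 96 bases before the start, and the CRE core TGACG overlaps it on both strands.

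The same motifs were counted over all promoters. RefSeq promoters were given for 37 of the 42 members (not for *Acr*, *Cabyr*, *Odf1*, *Catsper1* and *Crem*). With both strands searched and any start of a gene counted, the CRE core was in 11 of 37 members (29.7%) and in 17.8% of all 32851 promoters, the full CRE in 1 of 37 (2.70%) and in 1.55%, the X-box core in 6 of 37 (16.2%) and in 10.4%, and the TATA motif in 3 of 37 (8.11%) and in 12.4%. Among the 13 genes that were called lower and had a promoter, the counts of genes were 4, 0, 3 and 2. Members were counted by gene and all promoters by start, so the shares are not in like units. A gene with several starts has more chances of a match. A missing match says only that these letters are not in this window.

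Values are log2 RPM, the reads on a gene scaled to the total reads of the library, and differences are the cryptorchid mean minus the control mean on that scale. Reads on genes ranged from 4511730 to 24345368 in control and from 3306771 to 20027902 in cryptorchid libraries. A gene without reads is listed at the value of 0.9 reads, which is -3.63 in cryptorchid replicate 2. Replicates 1 to 3 of both groups differed from replicates 4 and above in the share of reads on genes (74.5% to 94.0% against 94.8% to 99.9%), and the labels do not say why. Genes were tested with limma and called at 2-fold and an unadjusted *P*-value below 0.05, over the 16932 genes with a mean RPM above a low limit, which all 42 members passed.

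The spermatid genes were detected in every control library and were mostly lower in cryptorchid libraries. The mean was lower for 37 of 42 members (43.3% of all genes tested) and lower by over 2-fold for 26 (6.63% of all genes). Of these, 14 were called lower, against 2.36% of all genes, and 0 were called higher, against 3.56%. The median difference of the members was -1.47, with a range from -4.20 (*Fscn3*) to 0.55 (*Rfx2*), beside a median of 0.099 over all genes. No member passed an adjusted *P*-value of 0.05 (smallest 0.130, limma with Benjamini-Hochberg adjustment over all genes, while 14 members had an unadjusted value below 0.05, and voom also gave 0), which 0.00591% of all genes did in the same direction. With limma's array weights, which count libraries that stand apart for less, 6 members passed (*Fscn3*, *Prm2*, *Tssk6*, *Tcp11*, *Odf2* and *Spata18*, adjusted *P* from 0.0103 to 0.0402) beside 1.32% of all genes, and without cryptorchid replicate 6 *Prm2* passed (adjusted *P*=0.0409 with limma) beside 0.0355%. The groups did not overlap for 1 member, *Fscn3*, against 0.283% of all genes lower without overlap. Over all genes, calls were 399 lower and 603 higher, and with quantile normalization 542 lower and 457 higher, where 17 members were called lower. In bulk RNA, fewer spermatids among the sorted cells and less spermatid RNA per cell cannot be told apart.

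**Figure D1:**
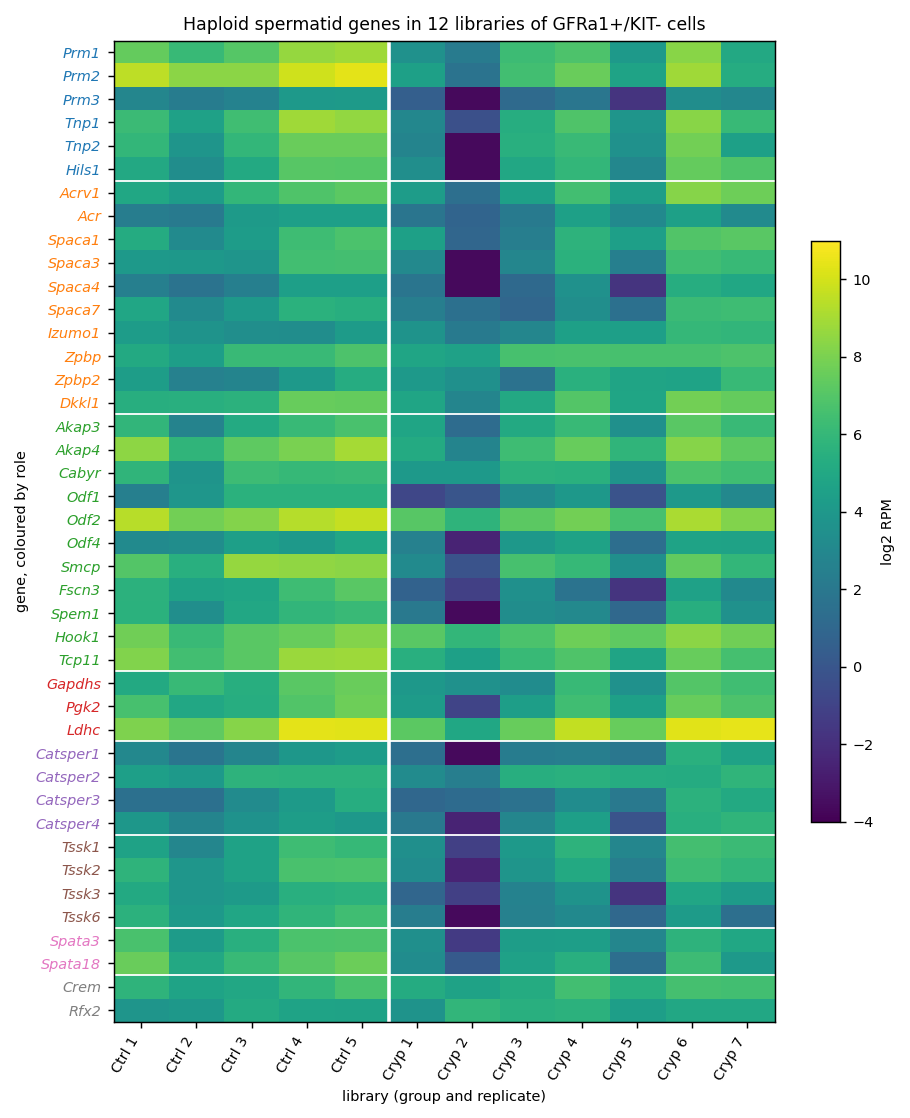
Log2 RPM (colour) of the 42 haploid spermatid genes (rows, ordered and coloured by role) in 5 control (Ctrl) and 7 cryptorchid (Cryp) libraries (columns). Cryptorchid replicate 2 is the darkest column, with 8 genes without reads, and the median gene of cryptorchid replicate 6 (6.47) is within the medians of the control libraries (4.01 to 6.73).

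Genes of nuclear packaging had lower means in all 6 cases, and 3 of 6 were called lower. *Prm2*, the protamine that is made as a precursor and trimmed on the DNA, was at 9.51, 8.41, 8.41, 9.90 and 10.37 log2 RPM in control replicates 1 to 5, and at a lowest of 1.69, a median of 5.30 and a highest of 8.89 in cryptorchid libraries. Its difference was -3.73 (SE 0.86, adjusted *P*=0.134 with limma, exact rank sum *P*=0.0101). Only the highest cryptorchid library, replicate 6, reached into the control range, and the other 6 lay below it. *Prm1*, the protamine common to all mammals, was at 7.43, 6.09, 7.06, 8.61 and 8.86 in control and from 2.25 through a median of 5.04 to 8.32 in cryptorchid libraries (difference -2.40, SE 0.80, adjusted *P*=0.359 with limma, exact rank sum *P*=0.048). For *Prm1*, 4 of 7 cryptorchid libraries were below every control library. *Prm3*, their acidic neighbour, was at 2.87, 2.27, 2.67, 4.08 and 4.17 in control and fell to no reads in cryptorchid replicate 2 and to 1 read (-1.77) in replicate 5, with a median of 1.18 and a highest of 3.34 (difference -2.58, SE 1.03, adjusted *P*=0.44 with limma, exact rank sum *P*=0.0732). This call was lost when control replicate 4 or 5 was left out.

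The transition proteins gave differences of a like size with more spread. *Tnp1* was at 6.22, 4.60, 6.38, 8.87 and 8.59 in control and from -0.31 through 5.34 to 8.35 in cryptorchid libraries, a difference of -2.20 (SE 1.12, adjusted *P*=0.557 with limma, exact rank sum *P*=0.149) that was not called. *Tnp2* was at 5.96, 3.84, 5.91, 7.58 and 7.57 in control, had no reads in cryptorchid replicate 2, and had a median of 4.52 and a highest of 7.79 in that group (difference -2.37, SE 1.35, adjusted *P*=0.603 with limma, exact rank sum *P*=0.268). In both genes cryptorchid replicate 6 was inside or above the control range, and both were called lower when that library was left out (differences -2.81 and -3.03). *Tnp1* was also called without control replicate 2 (-2.79) or cryptorchid replicate 4 (-2.56). *Hils1*, a spermatid histone H1 variant, differed by -1.54 and was not called. The exons of *Tnp1* overlap *1700027A15Rik* on the other strand, and reads of the pair cannot be told apart without strand.

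The list of the fibrous sheath, outer dense fibres and tail assembly held 6 of the 14 calls, out of 11 members. It is a grouping by role, and not all of its members are parts of the tail. *Fscn3*, an actin-bundling fascin of the testis, was at 5.61, 4.65, 4.82, 6.35 and 7.16 log2 RPM in control and at a lowest of -1.77, a median of 1.70 and a highest of 4.57 in cryptorchid libraries. The highest cryptorchid library was below the lowest control library, and the difference was -4.20 (SE 0.94, adjusted *P*=0.13 with limma, exact rank sum *P*=0.00253), or 18.3-fold lower. This exact rank sum *P*-value is the smallest that 5 against 7 libraries allow. The 18.3-fold comes from means of log2 values, which give weight to very low counts. *Fscn3* had 5 reads in cryptorchid replicate 2 and 1 read in replicate 5. Its mean RPM, on which such counts weigh less, was 65.4 in control and 7.03 in cryptorchid libraries, a smaller fold. The gene lies at chr6:28427789-28438622 on the plus strand, and *Gcc1* overlaps its exons on the other strand. *Tcp11*, a testis protein linked to sperm motility, was at 8.17, 6.46, 7.18, 8.73 and 8.78 in control and from 4.5 through 6.08 to 7.50 in cryptorchid libraries (difference -1.90, SE 0.51, adjusted *P*=0.223 with limma, exact rank sum *P*=0.0303). Its groups overlapped, since the control replicate 2 value was below those of 3 cryptorchid libraries.

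*Odf1* and *Odf2* encode parts of the outer dense fibres, the stiff rods beside the axoneme. *Odf1* was at 2.46, 3.87, 5.58, 5.56 and 5.59 in control and from -0.78 through 2.99 to 4.12 in cryptorchid libraries (difference -2.70, SE 0.91, adjusted *P*=0.359 with limma, exact rank sum *P*=0.0732). *Odf2*, which is also used at centrosomes outside the testis, stayed abundant, at 9.39, 7.79, 8.23, 9.35 and 9.70 in control and from 5.75 through 7.2 to 9.09 in cryptorchid libraries (difference -1.50, SE 0.48, adjusted *P*=0.338 with limma, exact rank sum *P*=0.0303). It had the smallest standard error of the called members. *Smcp*, a cysteine-rich protein of the mitochondrial capsule, was at 7.0, 5.48, 8.65, 8.52 and 8.40 in control and from -0.16 through 5.96 to 7.40 in cryptorchid libraries (difference -2.96, SE 1.0, adjusted *P*=0.359 with limma, exact rank sum *P*=0.048). *Spem1*, which sheds cytoplasm from the maturing sperm, was at 5.59, 3.41, 5.01, 5.89 and 6.19 in control, and had no reads in cryptorchid replicate 2, a median of 3.07 and a highest of 5.39 in that group (difference -3.09, SE 1.08, adjusted *P*=0.378 with limma, exact rank sum *P*=0.0177).

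Of the fibrous sheath genes in this list, *Akap3*, *Akap4* and *Cabyr*, none was called in the main fit. *Akap4* was called with a term for the replicate sets (-1.86), with voom (-1.66) and with array weights (-1.26), among other settings. *Akap4*, the main sheath protein and a gene of the X chromosome, was at 8.45, 5.84, 7.25, 7.96 and 8.96 in control and from 2.75 through 6.36 to 8.29 in cryptorchid libraries (difference -1.52, SE 0.74, adjusted *P*=0.536 with limma, exact rank sum *P*=0.149), and its partners *Akap3* and *Cabyr* differed by -0.42 and -0.46. *Akap4* was called lower without control replicate 2 (-1.99) and without cryptorchid replicate 4 (-1.75), 6 (-1.88) or 7 (-1.71). *Hook1*, which acts in the manchette and also in endosome transport of other cells, was at 7.76, 6.14, 7.18, 7.49 and 8.19 in control and from 5.94 through 7.25 to 8.42 in cryptorchid libraries, a difference of -0.07 (SE 0.40, adjusted *P*=0.967 with limma, exact rank sum *P*=0.755). The 2 groups of *Hook1* covered much the same range, and its difference turned positive without control replicate 1 or 5 or without cryptorchid replicate 2 or 3.

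**Figure D2:**
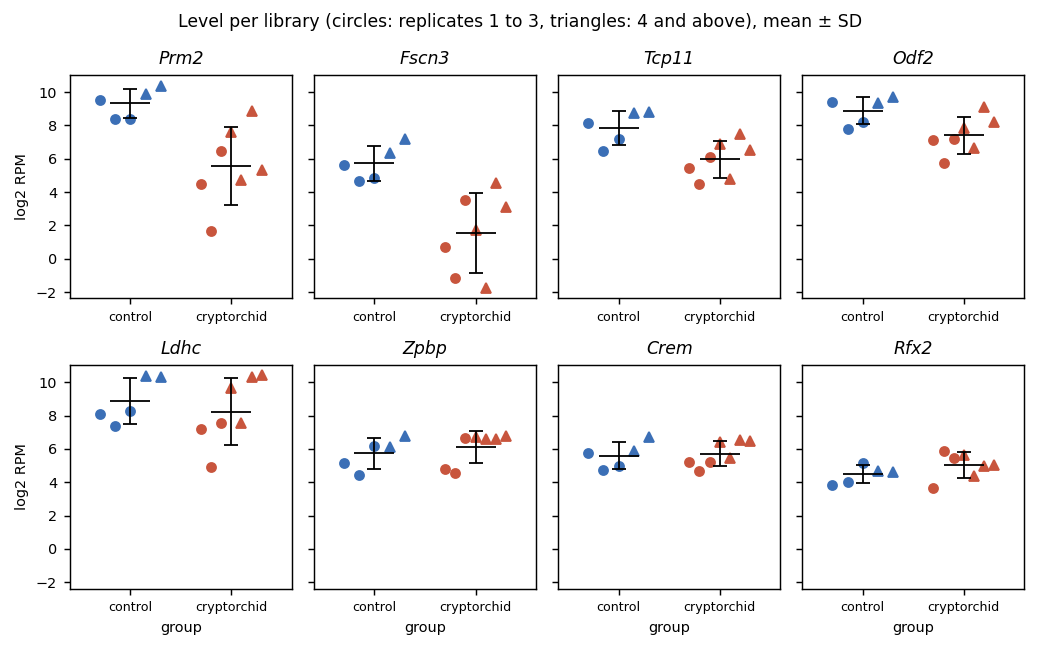
Log2 RPM of 8 haploid spermatid genes in each library of the control and cryptorchid groups, with the mean and SD as black marks; circles are replicates 1 to 3 and triangles replicates 4 and above. The groups of *Fscn3* do not overlap, *Prm2* overlaps through 1 cryptorchid library, and the groups of *Zpbp*, *Crem* and *Rfx2* overlap in most libraries.

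Of the testis-specific serine kinases 2 of 4 were called lower, and of the spermatogenesis-associated genes both. The testis-specific serine kinases phosphorylate proteins of the spermatid after meiosis. *Tssk6* was at 5.66, 4.10, 4.89, 5.82 and 6.39 in control, and had no reads in cryptorchid replicate 2, a median of 2.37 and a highest of 4.26 in that group (difference -3.77, SE 0.97, adjusted *P*=0.215 with limma, exact rank sum *P*=0.00505). Only 1 cryptorchid library of *Tssk6* reached the lowest control value. *Tssk3* was at 5.14, 3.88, 4.16, 5.47 and 5.63 in control and from -1.77, which is 1 read, through 2.66 to 4.90 in cryptorchid libraries (difference -2.92, SE 1.0, adjusted *P*=0.365 with limma, exact rank sum *P*=0.0303). *Tssk2* differed by -2.07 and *Tssk1* by -0.96, and neither was called. *Tssk6* shares exon bases with *Ndufa13* on the other strand and *Tssk1* with *Dgcr2*, so both are uncertain. Exons of *Spaca7*, *Zpbp*, *Odf2*, *Hook1*, *Catsper2* and *Crem* also overlap genes on the other strand, and those of *Izumo1* and *Tcp11* genes on their own strand (*Rasip1* and *AC132460.1*).

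*Spata18*, a protein of mitochondrial quality control that is abundant in the testis, was at 7.57, 5.08, 6.09, 7.11 and 7.61 in control and from 0.22 through 4.12 to 6.28 in cryptorchid libraries (difference -3.07, SE 0.83, adjusted *P*=0.223 with limma, exact rank sum *P*=0.0177). *Spata3* was at 6.71, 4.21, 5.47, 6.73 and 6.79 in control and from -1.48 through 4.33 to 5.71 in cryptorchid libraries (difference -2.51, SE 0.91, adjusted *P*=0.393 with limma, exact rank sum *P*=0.048). In both genes the control values of replicates 2 and 3 lay inside the cryptorchid range and the others lay above it.

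Sperm make ATP in the tail with their own glycolytic isozymes. *Ldhc*, the sperm lactate dehydrogenase, had the highest mean RPM of the members, at 8.12, 7.35, 8.27, 10.39 and 10.30 in control and from 4.94 through 7.53 to 10.44 in cryptorchid libraries (difference -0.66, SE 0.81, adjusted *P*=0.836 with limma, exact rank sum *P*=0.639). *Gapdhs*, the sperm glyceraldehyde-3-phosphate dehydrogenase, was at 5.10, 6.12, 5.42, 7.16 and 7.58 in control and from 3.32 through 3.98 to 6.97 in cryptorchid libraries (difference -1.43, SE 0.65, adjusted *P*=0.502 with limma, exact rank sum *P*=0.149). The call of *Gapdhs* was lost when any one of control replicates 2, 4 and 5 or cryptorchid replicates 1, 2, 3 and 5 was left out, and *Tmem147os* overlaps it on the other strand. *Pgk2*, the retrogene copy of phosphoglycerate kinase, differed by -1.61 and was not called. The isozymes of other cells (*Gapdh*, *Pgk1*, *Ldha*, *Ldhb*) differed by -0.54, 0.71, 0.34 and 0.88, and 0 of these 4 were called.

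Acrosome and calcium channel genes had 0 calls among their 14 members. With a term for replicates 1 to 3 against 4 and above, 3 acrosome genes were called lower, *Spaca3* (-2.33), *Spaca7* (-1.82) and *Dkkl1* (-1.01). *Dkkl1*, a protein of the acrosome, was at 5.39, 5.47, 5.63, 7.54 and 7.44 in control and from 2.82 through 5.07 to 7.78 in cryptorchid libraries (difference -0.61, SE 0.71, adjusted *P*=0.824 with limma, exact rank sum *P*=0.432). The other acrosome and egg-binding genes differed by -1.71 (*Spaca3*) to 0.54 (*Zpbp2*), with a median of -0.58 over the 10, and *Izumo1*, the sperm protein that binds the egg receptor JUNO, differed by 0.41, *Zpbp* by 0.38. The 4 *Catsper* subunits of the sperm calcium channel differed by -1.17 to -0.32. *Crem* was at 5.73, 4.71, 5.0, 5.85 and 6.71 in control and from 4.67 through 5.46 to 6.55 in cryptorchid libraries (difference 0.12, SE 0.40, adjusted *P*=0.946 with limma, exact rank sum *P*=1), and *Rfx2* was at 3.84, 4.01, 5.16, 4.70 and 4.62 in control and from 3.68 through 5.02 to 5.90 in cryptorchid libraries (difference 0.55, SE 0.39, adjusted *P*=0.693 with limma, exact rank sum *P*=0.268). Neither transcription factor had groups apart, and the sign of *Crem* changed without control replicate 2 or 3 and without cryptorchid replicate 4, 6 or 7, among other settings. The *Crem* gene also yields isoforms that repress, which a gene total does not separate.

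**Figure D3:**
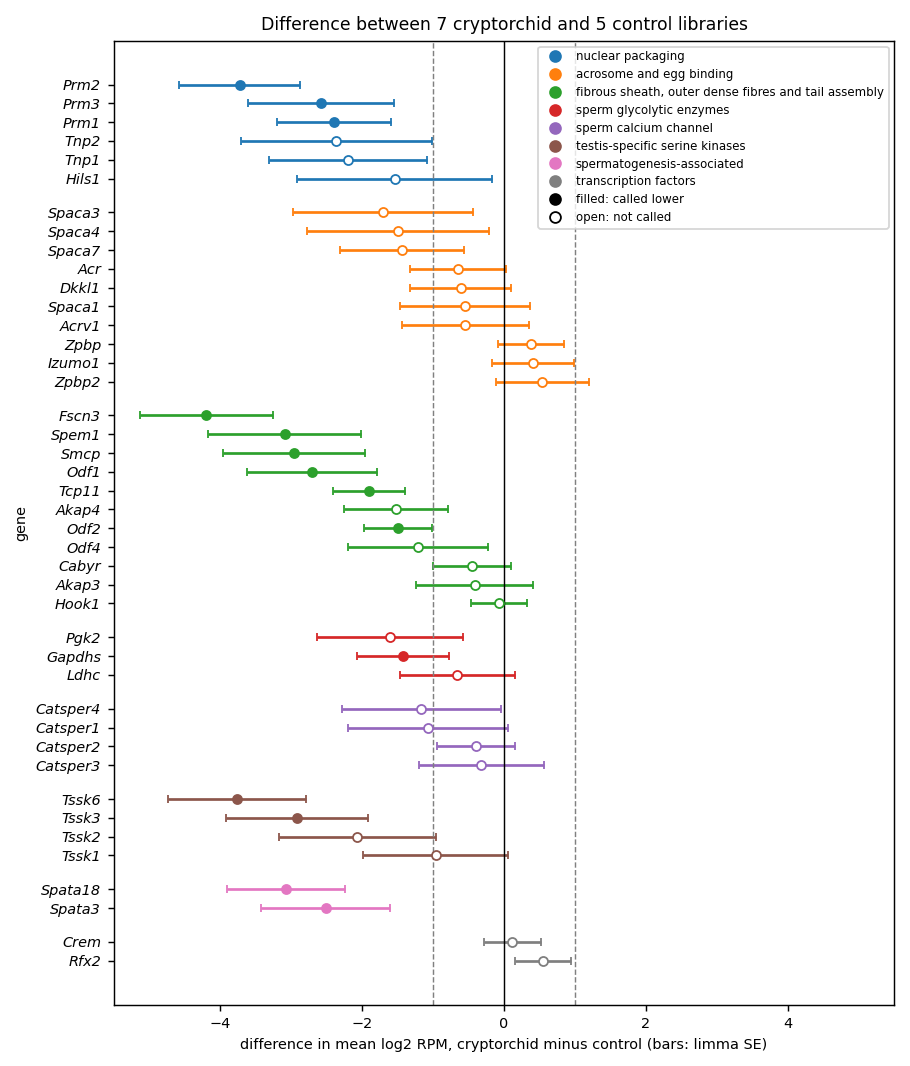
Difference of the mean log2 RPM, cryptorchid minus control, with its limma standard error for each of the 42 genes, by role; filled points were called lower, open points were not, and the dashed lines mark 2-fold. The 14 filled points lie between -4.20 and -1.43, and the genes above 0 are *Izumo1*, *Zpbp*, *Zpbp2*, *Crem* and *Rfx2*.

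The spread between libraries was wide for these genes. Within cryptorchid libraries the members had a median SD of 2.27 log2 units, and 1.10 within control libraries. All genes with a mean level in the range of the members had 0.611 and 0.642. The SD was larger in the cryptorchid group for 41 of 42 members, and for 48.8% of those genes. These SDs describe genes that share libraries, so they are no independent replicates of one another.

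For most members the low and the high values fell in the same libraries. Cryptorchid replicate 2 was lowest of the 12 libraries for 32 members, had no reads for 8 and under 10 reads for 17, and lay below the control range for 38. Cryptorchid replicate 6 was highest in its group for 33 members, with 25 inside the control range, 16 above it and 1 below. Below the control range were 31 members in cryptorchid replicate 1, 28 in replicate 5, 20 in replicate 3, 6 in replicate 4 and 5 in replicate 7. In control, replicate 5 was highest for 27 members and replicate 2 lowest for 34. The summed RPM of the 42 members was 1616 to 8688 in control (median 4189, or 0.445% of reads on genes) and 370.3 to 6741 in cryptorchid libraries (median 1556, or 0.192%), and the ratio of the group means was 0.527. Sums of nuclear packaging genes had a ratio of 0.292, genes of the tail list 0.442 and serine kinases 0.447, while acrosome genes had 1.08 and calcium channel genes 1.05. The median sum of acrosome genes was still lower in cryptorchid libraries (237.8 against 274.5), as was that of calcium channel genes (57.5 against 79.6). Cryptorchid replicates 6 and 7 had the highest sums of both lists (acrosome 1062 and 954.9, calcium channel 179.2 and 173.3).

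**Figure D4:**
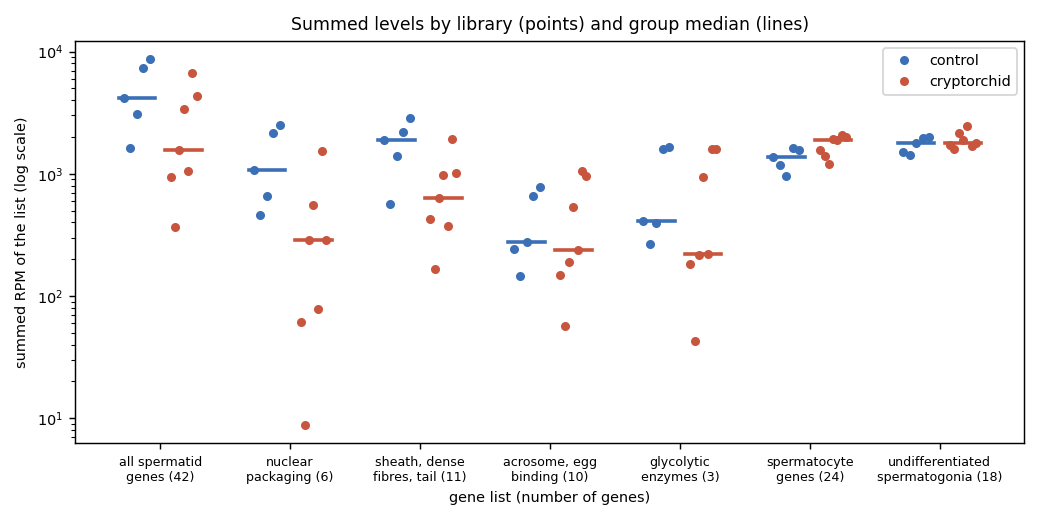
Summed RPM (log scale) of gene lists in each library of the control and cryptorchid groups, with lines at the group median. The sums of the 42 spermatid genes run from 370.3 to 8688, while those of spermatocyte and undifferentiated spermatogonia genes stay between 954.1 and 2441.

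Leaving out the lowest libraries moved the median of the members more than their calls. Without cryptorchid replicate 2 the median difference was -0.59 and 13 members were called lower (2.39% of all genes). Without cryptorchid replicates 2 and 5, a choice made after seeing the data, the median was -0.22, beside 0.126 over all genes. The mean was then lower for 23 of 42, a count whose share over all genes was not computed. In that fit 12 members were called lower (2.04% of all genes), all of them among the 14, with *Prm3* and *Gapdhs* lost. With a term for replicates 1 to 3 against 4 and above, 23 members were called lower (3.75% of all genes), the 14 and *Tnp1*, *Tnp2*, *Spaca3*, *Spaca7*, *Dkkl1*, *Akap4*, *Pgk2*, *Ldhc* and *Tssk2*. *Prm2* (adjusted *P*=0.0323), *Tcp11* (0.0476) and *Fscn3* (0.0490) passed an adjusted *P*-value of 0.05 in that limma fit, which 0.183% of all genes did in the same direction. Within replicates 1 to 3 the median difference of the members was -2.43 with 20 called lower (2.04% of all genes), and within replicates 4 and above it was -1.18 with 12 called lower (4.16% of all genes). The means of 38 members were lower in both sets, the 14 called members among them, and the share of all genes lower in both was not computed.

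In a pair chosen after the values were seen, the ratio of *Prm2* to *Ldhc* did not overlap between the groups, while the levels of both did. These ratios per length of exon within a library were not tested. The share of all gene pairs that separate in this way was not computed. *Prm2* alone overlapped only through cryptorchid replicate 6 (8.89 log2 RPM), where *Ldhc* was at 10.32. *Prm2* was at 4.63, 3.68, 1.94, 1.26 and 1.85 times the level of *Ldhc* in control replicates 1 to 5, and at 0.275, 0.186, 0.842, 0.428, 0.250, 0.653 and 0.0502 times in cryptorchid replicates 1 to 7. All 7 cryptorchid ratios were below the lowest control ratio. In replicate 7 *Ldhc*, the divisor, was at its highest (10.44 log2 RPM), which by itself lowers the ratio. *Prm2* there (5.30) was already below every control library. For *Prm1* and *Fscn3* 6 of 7 cryptorchid ratios were below the control range, for *Tnp1* 5 and for *Acrv1*, an acrosomal protein of early spermatids, 0. The ratio of *Ldhc* to *Ldha* ranged from 5.28 to 19.6 in control and from 0.90 to 14.1 in cryptorchid libraries.

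**Figure D5:**
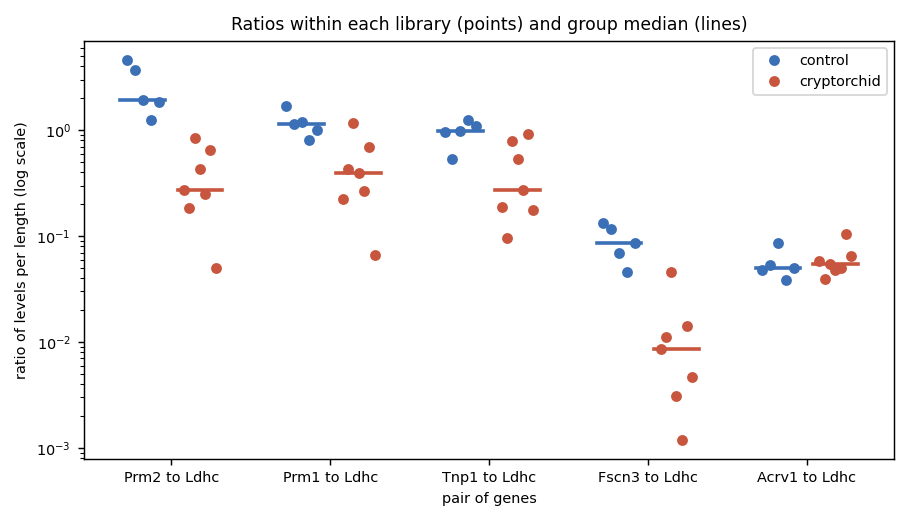
Ratio of the level per length of 5 genes to that of *Ldhc* in each library (log scale), with lines at the group median. Ratios of *Prm2* lie at 1.26 to 4.63 in control and at 0.0502 to 0.842 in cryptorchid libraries, while those of *Acrv1* overlap.

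Per length of exon, *Prm2* had the highest mean level of the members, followed by *Ldhc*, *Tnp1*, *Prm1*, *Smcp* and *Tnp2*. The exon structure, which the choice of genes did not use, was compared as well, and 2 of 7 single-exon members and 12 of 35 with several exons were called lower, with median differences of -1.61 and -1.21.

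Other lists were set beside the members. Of 32 further spermatid genes, 29 had a lower mean, the median difference was -1.31, and 4 were called lower, namely *Gsg1* (-2.73), *Oaz3* (-2.32), *Tmem95* (-2.43) and *Spaca6* (-1.37). Of 23 tested spermatocyte genes 0 were called lower and *Tex12* and *Mybl1* were called higher. *H1f6*, also listed, did not pass the low limit (mean level per length of exon 0.627 RPKM in control and 0.410 in cryptorchid libraries). The summed RPM of the spermatocyte list was 954.1 to 1627 in control and 1208 to 2082 in cryptorchid libraries. Whether this list follows the number of spermatocytes was not tested. Among 18 genes of undifferentiated spermatogonia 0 were called lower and *T* and *Tspan8* were called higher, and the sum was 1438 to 2005 and 1582 to 2441. *Gfra1*, the sorted marker, averaged 7.88 log2 RPM in control and 8.40 in cryptorchid libraries. Of 8 genes of differentiating spermatogonia, *Dnmt3b* was called lower and *Stra8* higher. *Creb1* and the other factors related to CREM and RFX2 had 0 calls among 5.

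Markers of other testis cells were detected, some of them with few or no reads. By qRT-PCR of marker genes, the paper reports high enrichment of undifferentiated spermatogonia in its sorted cells. The low-value limit was passed by 13 of 14 Sertoli, 3 of 7 Leydig, 4 of 5 peritubular myoid, 7 of 8 macrophage and 5 of 5 endothelial genes, and *Hsd3b6*, a Leydig cell gene, had no reads in any library. Summed RPM of 14 Sertoli cell genes was 25.7 to 395.1 in control and 31.7 to 531.5 in cryptorchid libraries, with *Gata1* called higher. By replicate set it was 25.7 to 59.5 in replicates 1 to 3 and 200.3 to 531.5 in replicates 4 and above. Per length of exon *Defb19*, the most abundant of these Sertoli cell genes, had a mean level of 149.6 RPKM, beside 154.8 for *Smcp*. Leydig cell genes summed to 8.64 to 15.5 and 6.18 to 47.8. That sum rests mainly on *Star*, with means of 3.33 log2 RPM in control and 3.88 in cryptorchid libraries, beside -1.66 and -1.67 for *Cyp11a1*. Peritubular myoid genes summed to 1.46 to 16.6 and 0.714 to 14.5 with *Des* called higher. Macrophage genes summed to 3.82 to 24.6 and 11.5 to 43.7 with *Mrc1* called higher, and endothelial genes to 8.73 to 22.9 and 11.4 to 40.0 with *Cdh5* and *Tie1* called higher. The control means of *Tie1* and *Des* were -3.61 and -3.06 log2 RPM, so both calls rest on few or no control reads. A gene without reads is listed at -5.00 to -2.33 in control and at -4.63 to -1.92 in cryptorchid libraries, depending on depth. The part of these other cells in the levels of the spermatid genes was not tested.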

How the data were processed

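The authors made Smart-seq2 libraries with Nextera XT, trimmed reads with Trim Galore 0.6.6, checked them with FastQC 0.11.8 and mapped them to mm10 with HISAT2 2.1.0. SeqMonk gave their counts over UCSC protein-coding genes, and the values they deposited are log2 RPM of 21859 genes, with 0 columns of no sample. Whether strand was used is not stated, and there are no molecular identifiers, so counts of amplified cDNA cover counting error only. Libraries were grouped by their titles, and nothing says which share a mouse, so *P*-values measure the spread between these libraries.

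The step between low RPM values gave the worth of 1 read in each library, and with it 100% of low values came out as whole reads. Replicates of a group differed by over 13.4 times the sampling noise.

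Limma 3.58.1 in R 4.3.3 (lmFit, eBayes with trend) was fitted to the deposited log2 RPM over the 16932 genes with log2 mean RPM above -1. Adjusted *P*-values are Benjamini-Hochberg over all of them. The test was also run on simulated data with independent noise for each gene. That simulation held no shift shared by a library or a replicate set, so it does not cover such shifts in these data. Single members were also compared by exact two-sided rank sums. Exons and positions were read from GENCODE vM21 (GRCm38, which is mm10), and upstream sequences are RefSeq on GRCm38.p6. Python 3.11.15, numpy 2.4.6, pandas 2.3.3 and matplotlib 3.10.9 were used.

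Named genes are *Prm1*, *Prm2*, *Tnp1*, *Tnp2*, *Crem*, *Rfx2*, the called members, those without overlap and the 10 with the highest mean RPM. Others are named as examples of their role. Members and lists were chosen with earlier results of these data known. Alternatives were other scalings, pseudocounts, filters, array weights, voom on recovered reads and a replicate block on replicates 1 to 5. Others were a term for replicates 1 to 3, each of those sets alone and each library left out.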

Additional observations from a re-analysis of the deposited data

Results flagged for a closer look

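In 5 cases cryptorchid replicate 2 stood apart below the other 6 cryptorchid libraries. It was at -3.63 log2 RPM, which is no reads, for *Hils1* (others 2.93 to 7.46), *Spaca3* (2.48 to 6.39) and *Tssk6* (1.04 to 4.26), at -0.90 for *Pgk2* (4.23 to 7.54) and at -1.48 for *Spata3* (2.87 to 5.71). Among control libraries, replicate 2 stood apart for *Cabyr*, at 3.77 against 5.84 to 6.27 in the others. Each gap was above Dixon's limit for its group, and 6 of 86 groups examined (6.98%) were picked out this way. Chance picks about 1 in 20 of independent groups. These groups share the same 12 libraries, so the rates cannot be compared.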

How the results depend on the processing

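The median difference of the members stayed negative in all alternatives run, and their ratio of summed means stayed below 1 in those that apply to it (libraries or *Ldhc* left out). Members called lower were 14 (2.36% of all genes), and 14 to 19 under the alternatives of scaling, pseudocount, filter, array weights and voom (1.89% to 4.15% of all genes). They were 12 to 20 with each library left out (1.65% to 3.36% of all genes), with medians from -1.83 to -0.59. In these fits 0 members were called higher, beside 501 to 757 of all genes. Ratios of summed means were 0.390 to 0.648 with each library left out, and 0.477 without *Ldhc*. Members called lower rose to 23 with the term for replicates 1 to 3, and 1 member, *Izumo1* (1.40), was called higher within replicates 4 and above alone, where *Prm3*, *Gapdhs* and *Tssk3* were no longer called.

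The replicate block was fitted to replicates 1 to 5 only, so cryptorchid replicates 6 and 7 were left out. Those libraries were highest in their group for 33 and 7 members. In that fit 35 members were called lower, beside 893 (5.27%) of all 16932 genes. Of these members, 26 passed an adjusted *P*-value of 0.05 with limma, beside 594 of all genes. Effects of the block and of the libraries left out cannot be told apart there. Deviations of same-numbered libraries correlated at 0.347, 0.363, 0.411, 0.250 and 0.049, and 4 of 5 control libraries correlated best with their own number, a hint from the data and not the design, so the numbers were not taken as pairs.

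Some genes with small differences changed sign; the cause was not tested. *Crem* was at -0.20 with the replicate block on replicates 1 to 5. It was at -0.082 with the term, -0.11 and -0.050 within the sets, and -0.11 to 0.39 with a library left out. *Hook1* was at -0.37 to 0.15 with a library left out and at 0.20 without cryptorchid replicates 2 and 5, where *Dkkl1* was at 0.13 and *Ldhc* at 0.14. Cryptorchid replicate 2, with no reads for 8 members, had 9130420 reads on genes, above the 3306771 to 4611830 of cryptorchid replicates 4 to 7, where 0 members were without reads. These libraries belong to different replicate sets, and the cause of the missing reads was not tested.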
